A study of Homo sapiens with 8 samples.

Results

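Ago2-bound RNA was compared between L1236 cells carrying a miR-155 sponge and L1236 cells carrying the empty vector (EV). L1236 is an established Hodgkin lymphoma cell line with high endogenous miR-155. Both populations carried the retroviral vector pMSCV-PIG, either empty or with the sponge insert, and GFP+ cells were sorted. RNA was taken from total cell lysate (T) and from an immunoprecipitate (IP) made with a monoclonal Ago2 antibody. The comparison uses 4 of the 8 labelled samples of the series, namely EV IP and sponge IP in Cy3 and in Cy5. The other 4 are the same labellings of T. Cy3 and Cy5 are labels of 1 RNA, so each group holds 1 RNA sample, no difference between the populations was tested, and ± gives the SD over the 2 dyes, which covers labelling and hybridisation only. The question was which transcripts leave or join Ago2 when the miR-155 sponge is present. The paper reports only a mild loss of miR-155 targets from IP in its sponge-carrying Hodgkin lines. It proposes that the sponge left part of the miR-155 free. The IgG precipitate of the study was not on these arrays, and a second culture or precipitation was not analysed here.

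Argonaute 2 is the core protein of the RNA-induced silencing complex. It holds a mature miRNA and, through pairing of the miRNA seed with a messenger RNA, holds the target as well. A sponge is a transcript with repeated binding sites for 1 miRNA, which competes with the natural targets for it. MiR-155 is processed from the transcript MIR155HG, is induced in activated and germinal center B cells, and is known for repressing immune regulators and transcription factors. The amount of a transcript in the IP depends on how much of it the cell holds and on the share bound by Ago2, so each change in IP is set beside the change in T.

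The mature sequence of the sponged miRNA is shown first because its seed defines the targets whose Ago2 binding the sponge competes for. The other 3 miRNAs serve as comparators for target lists below. All are from RefSeq (GRCh38.p14), written 5′ to 3′ with the seed (bases 2 to 8) in capitals.
hsa-miR-155-5p: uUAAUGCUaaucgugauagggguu
hsa-miR-17-5p: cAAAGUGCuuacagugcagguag
hsa-let-7a-5p: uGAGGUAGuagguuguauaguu
hsa-miR-21-5p: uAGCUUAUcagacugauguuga
The miR-155 sequence lies in MIR155HG on chromosome 21, chr21:25573983-25574006, plus strand. The 4 seeds differ from each other.

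Values are the deposited quantile-normalised log2 signals. Of 22282 probes in the deposited table, 22009 (98.8%) were well above background in all 4 IP channels and form the set described here. Of these, 15397 (70.0%) had a gene symbol, for 11023 genes. The change in IP is the log2 signal of sponge IP minus that of EV IP, taken within each dye and averaged. Across probes, the change had a median of 0.01 and an SD of 0.21, against an SD of 0.11 for the distance of each dye from the mean of both. The changes seen with Cy3 and with Cy5 correlated across probes with r = 0.59. Probes are not replicates, and both dyes measured the same RNA. On the scanner, 63.0% to 65.0% of the array's 41000 probes were well above background in the IP channels, against 53.1% to 61.8% in the T channels, where sponge T in Cy5 was lowest. All 8 markers of Hodgkin Reed-Sternberg cells, including TNFRSF8 (CD30), CCL17, IRF4 and FSCN1, were well above background in all 8 channels. MS4A1 (CD20), which these cells commonly lose, was at background in all channels, as were CD3D, LYZ and EPCAM, which mark T cells, monocytes and epithelium. KRT8, CD14, CSF1R and CD3E were detected in all of them, and CD2 and CD8A in 7 of 8.

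Most of the Ago2-bound transcriptome changed little. In IP, 98.8% of the probes differed by less than 1.5-fold between sponge and EV cells. A probe was counted as changed if it differed by at least 1.5-fold with the same sign in both dyes. By this rule 144 probes (0.654%) were higher and 113 (0.513%) were lower in sponge IP. At 2-fold or more, 11 (0.05%) were higher and 8 (0.0363%) were lower. The 4 IP levels of a probe often separated by population even for small changes, since in 26% of all probes both sponge values lay above both EV values and in 24.1% both lay below. Of the 144 higher probes 142 separated in this way, as did all 113 lower ones. Under a background correction that pulls dim signals together (normexp), 17 probes in all were higher and 27 lower by the 1.5-fold rule. Of the 144 higher probes, 14 stayed past 1.5-fold and 135 kept their sign in both dyes. Of the 113 lower probes, 24 stayed past 1.5-fold and 98 kept their sign. The share of higher ones among changed probes was 56.0%, 38.6% under normexp and 74.7% when channels were scaled to their 75th percentile instead. The changed probes were dim as a group, with 77 of the higher and 65 of the lower ones in the dimmest of 4 equal groups by IP signal. The largest single fall was at a probe without a gene symbol (A_24_P570930), by 2.06 ± 0.80 on the log2 scale, and 81 of the higher and 63 of the lower probes had no symbol. Among changed probes listed under Ensembl transcripts, which the gene table did not name, 10 of 12 lower ones and 1 of 10 higher ones were brighter than the median probe. After these values were seen, 2 transcripts with a pair of lower probes each were singled out. The probes of ENST00000361789 differed by -0.89 ± 0.12 and -0.81 ± 0.03 in IP and by -0.52 ± 0.25 and -0.53 ± 0.18 in T. Those of ENST00000361227 differed by -0.83 ± 0.21 and -0.62 ± 0.08 in IP and by -0.26 ± 0.18 and -0.04 ± 0.21 in T.

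The changes in IP largely ran with changes in T. Of the 144 probes higher in IP, 122 were also higher in T in both dyes, 53 of them by at least 1.5-fold, and 4 were lower in T in both dyes. Of the 113 probes lower in IP, 82 were lower in T in both dyes, 38 of them by at least 1.5-fold, and 5 were higher. The median change of the higher probes was 0.69 in IP and 0.51 in T. The median change of the lower probes was -0.68 in IP and -0.44 in T. Across all 22009 probes, the changes in IP and T correlated with r = 0.40. IP and T of one population shared arrays, and within crossed dyes, which were on the same array, r was 0.33 and 0.39, against 0.24 in each same-dye comparison. In bulk RNA, more RNA per cell and more cells expressing a gene cannot be told apart.

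**Figure D1:**
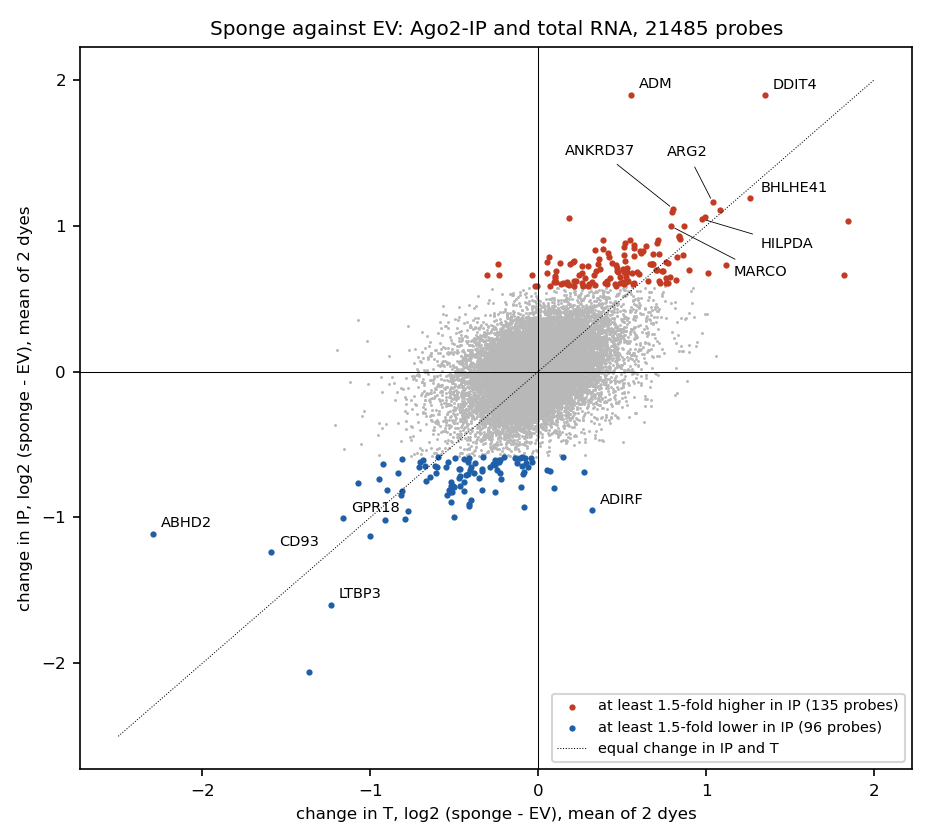
Change in Ago2-IP (y axis) against change in total RNA (x axis), both as log2 sponge minus EV and the mean of the 2 dyes, for 21485 probes that were also well above background in at least 1 T channel of each population. Coloured points changed at least 1.5-fold in IP (135 higher, 96 lower), and most of them lie in the quadrants where IP and T moved the same way, with ADM far above the line of equal change.

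Among the named genes with the largest increases were ADM, DDIT4, BHLHE41, ANKRD37 and HILPDA, which are known to respond to low oxygen or to stress. ADM encodes adrenomedullin, a secreted vasodilator peptide. Its log2 signal was 6.23 (Cy3) and 6.60 (Cy5) in EV IP and 8.18 and 8.45 in sponge IP, a rise of 1.90 ± 0.08 or 3.73-fold. In T, ADM was higher by 0.55 ± 0.08. DDIT4, also called REDD1, is a stress-induced inhibitor of mTORC1. Its log2 signal was 14.03 and 14.16 in EV IP against 15.89 and 16.09 in sponge IP, a rise of 1.89 ± 0.05 or 3.71-fold, with 1.35 ± 0.03 in T. Both genes had both sponge values above both EV values in IP, as did 26% of all probes. ADM was dim and its difference was 0.44 under the normexp correction, whereas that of DDIT4 was 1.76.

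BHLHE41, a transcriptional repressor of the circadian and hypoxia responses, stood at 8.78 and 8.57 in EV IP and at 9.93 and 9.81 in sponge IP, a difference of 1.19 ± 0.06 (0.53 under normexp). ARG2, the mitochondrial arginase, stood at 10.43 and 10.26 against 11.55 and 11.46, a difference of 1.16 ± 0.06. ANKRD37, an ankyrin-repeat protein known as a hypoxia-induced gene, stood at 11.97 and 11.92 against 13.09 and 13.03, a difference of 1.12 ± 0.01. HILPDA, a lipid droplet protein that restrains lipolysis, stood at 13.35 and 13.27 against 14.40 and 14.32, a difference of 1.05 in both dyes. The sponge values of these 4 genes were above the EV values in both dyes, and T was higher by 1.26 ± 0.24, 1.04 ± 0.01, 0.80 ± 0.07 and 0.98 ± 0.02 in the same order. MARCO, a scavenger receptor, was higher by 1.00 ± 0.04 in IP and 0.79 ± 0.03 in T. MBD2, a reader of methylated CpG, was higher by 0.93 ± 0.03 at 1 probe but by 0.09 at its second probe, and MAP3K6, a stress kinase, by 1.06 ± 0.33 at 1 probe and 0.09 at the second. SPRY1, an inhibitor of receptor tyrosine kinase signalling and a known miR-21 target, was higher by 1.00 ± 0.09 in IP (0.25 under normexp), with T well above background in only 1 of 2 channels of each population. The remaining rises of the leading 15 were PALLD, TNNC1, KCTD11, ITGB4 and CTSK, at 0.81 to 0.92, and for TNNC1, ITGB4 and CTSK the dyes differed by an SD of 0.37 to 0.72. After normexp, 5 of these genes stood at 0.16 to 0.48.

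Most of the largest decreases among named genes were at dim probes. LTBP3, which binds latent TGF-beta in the matrix, stood at 7.66 and 8.22 in EV IP and at 6.02 and 6.67 in sponge IP, a fall of 1.60 ± 0.06 with -1.24 ± 0.68 in T. CD93, a C-type lectin receptor, was lower by 1.24 ± 0.18 in IP and by 1.59 ± 0.21 in T. Both fell short of 1.5-fold under normexp, at -0.37 and -0.16. GPR183, the oxysterol receptor that positions B cells in lymphoid follicles, stood at 12.06 and 12.04 against 11.32 and 11.13. It differed by -0.83 ± 0.12 (-0.68 under normexp). It was lower by 0.51 ± 0.10 in T. AMOTL2, an angiomotin family protein of cell junctions, differed by -0.95 ± 0.21 in IP and -0.77 ± 0.44 in T. ZNF157, a zinc finger gene, differed by -0.75 ± 0.03 in IP and -0.52 ± 0.03 in T.

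CCL4, the chemokine MIP-1 beta, was lower in IP with little difference in T. Its log2 signal was 6.96 and 6.95 in EV IP and 6.08 and 5.96 in sponge IP, a difference of -0.93 ± 0.08, while T differed by -0.09 ± 0.05 with 1 of 2 channels of each population above background. Under normexp the IP difference of CCL4 was -0.19. ABHD2, a serine hydrolase, differed by -1.11 ± 0.40 in IP, and DIP2A by -0.88 ± 0.32, but a second probe of each gave -0.06 and -0.01. DIP2A was at background in both channels of sponge T. GRB10, GPR18, ADIRF, TBX1, C2CD4B, EXOC3L1 and DERL3 made up the rest of the 15, at -0.74 to -1.12. A second DERL3 probe went the other way, at 0.43, and under normexp the dyes disagreed in sign for GRB10, ADIRF and TBX1.

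**Figure D2:**
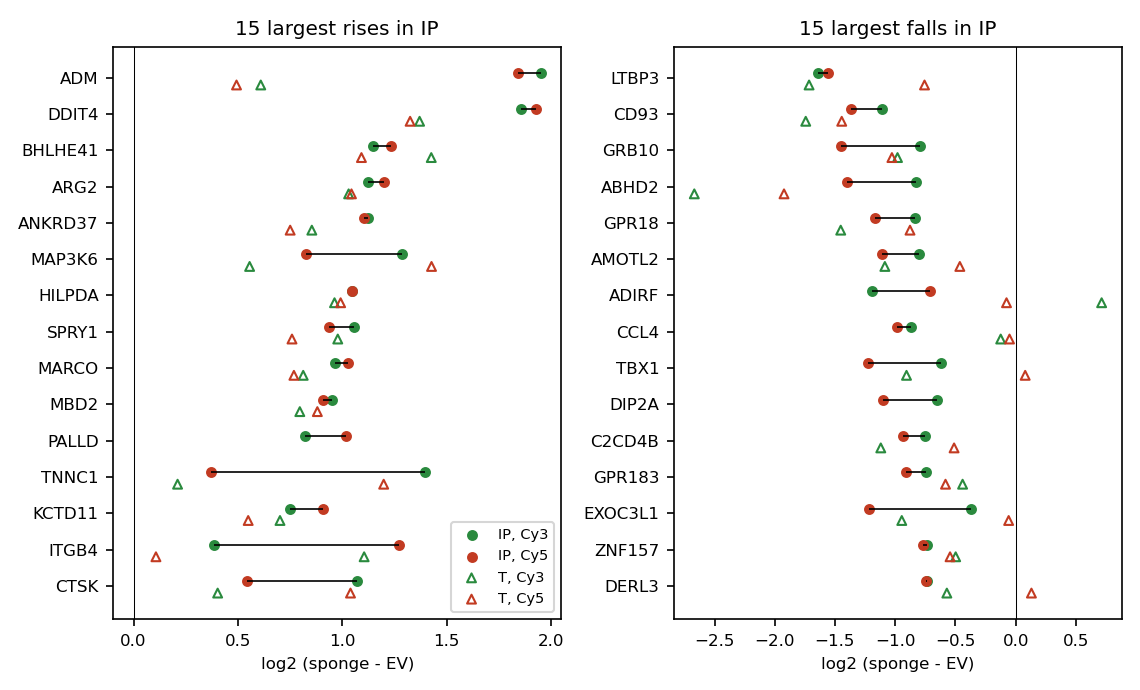
Changes (log2 sponge minus EV, x axis) of the 15 genes with the largest rises and the 15 with the largest falls in IP, with IP as filled circles joined by a line and T as open triangles, Cy3 in green and Cy5 in red. The dyes lie close together for DDIT4, ANKRD37, HILPDA and ZNF157 and far apart for TNNC1, ITGB4 and EXOC3L1, and T is left out for PALLD and DIP2A, which were at background in T of 1 population.

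Because ADM, DDIT4, BHLHE41, ANKRD37 and HILPDA were among the leading 15, a list of 44 genes commonly named as hypoxia-responsive was written after these values had been seen, so its direction is no independent evidence. Of its 40 genes with a probe in the set, 34 were higher in sponge IP in both dyes and 2 were lower, with a median change of 0.31 ± 0.03. Over all 11023 genes, 37.9% were higher and 36.5% lower in both dyes, with a median of 0.00. Of the 40 genes, 8 were at least 1.5-fold higher, against 0.481% of all genes. The 5 genes among the leading 15 had prompted the list. Without them, 3 of the other 35 were at least 1.5-fold higher, and the median of the 35 was 0.26. T moved alike, with a median of 0.22 ± 0.09, and the change in IP minus that in T had a median of 0.03 ± 0.03. The members included CA9, a membrane carbonic anhydrase (0.69 ± 0.13), BHLHE40, the paralog of BHLHE41 (0.74 ± 0.02), the glucose transporter SLC2A3 (0.62 ± 0.05) and VEGFA, a vascular growth factor (0.44 ± 0.03). The glycolytic enzymes ALDOC (0.53 ± 0.05), ENO1 (0.42 ± 0.05), TPI1 (0.39 ± 0.01) and PGK1 (0.37 ± 0.04) were higher in both dyes. SLC2A1 (0.02 ± 0.07) and PDK1 (0.08) differed little, and WSB1 (-0.29 ± 0.03) and RORA (-0.20) were lower. VHL, which marks hypoxia-inducible factors for destruction and is listed among common miR-155 targets, differed by -0.14 in IP.

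Hypoxia-inducible factors bind the core letters ACGTG or GCGTG, so RefSeq promoters (GRCh38.p14) were searched for these letters on both strands over 250 bases before to 50 after the start. A palindrome with ACGTG on both strands counts as 2 matches. Of the 11 promoters on hand for the 15 genes with the largest rises, 9 held a match, as did 6 of 10 for the 15 largest falls and 27 of 33 for the hypoxia list. The share was 62.8% for genes of the set and 48.4% for all promoters in the table. The 250 bases before the start of 3 genes that moved together are shown 5′ to 3′ with matches in capitals. They lie at chr11:10304823-10305072, chr10:72273674-72273923 and chr4:185396591-185396840, each on the plus strand.
ADM: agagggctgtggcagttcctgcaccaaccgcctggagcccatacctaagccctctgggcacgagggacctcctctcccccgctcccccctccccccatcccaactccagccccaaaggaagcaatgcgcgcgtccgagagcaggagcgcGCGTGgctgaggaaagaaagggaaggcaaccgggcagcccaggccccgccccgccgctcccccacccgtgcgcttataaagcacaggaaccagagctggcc
DDIT4: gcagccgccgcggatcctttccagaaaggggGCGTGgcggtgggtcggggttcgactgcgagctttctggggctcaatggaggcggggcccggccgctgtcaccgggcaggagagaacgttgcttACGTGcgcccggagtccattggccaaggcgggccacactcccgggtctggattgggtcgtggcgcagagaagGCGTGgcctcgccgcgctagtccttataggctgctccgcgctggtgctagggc
ANKRD37: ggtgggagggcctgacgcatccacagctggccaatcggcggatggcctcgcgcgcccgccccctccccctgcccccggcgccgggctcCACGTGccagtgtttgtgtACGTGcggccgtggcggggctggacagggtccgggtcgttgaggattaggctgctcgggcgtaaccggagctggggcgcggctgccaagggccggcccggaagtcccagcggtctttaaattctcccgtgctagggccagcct
In these stretches ADM held 1 match, DDIT4 3 and ANKRD37 3. A match describes the letters only.

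The targets of the sponged miRNA were lower in sponge IP as a group, and so were other transcripts enriched by the Ago2 antibody, as set out below. The study had named 54 genes as miR-155 targets from another line, ST486 (Burkitt lymphoma with miR-155 added), and 47 of them had a probe in the set. Of these, 37 were lower and 8 higher in both dyes (over all genes 36.5% were lower), with a median change of -0.20 ± 0.04 in IP and -0.03 ± 0.07 in T. Only PSKH1 was at least 1.5-fold lower (0.345% of all genes) and only CSRP2 was at least 1.5-fold higher. At the probes the study lists for these genes, the median over 49 probes was -0.25 ± 0.02. PSKH1, a serine kinase, stood at 15.43 and 15.78 in EV IP and at 14.78 and 15.12 in sponge IP, a difference of -0.66 with -0.06 ± 0.10 in T. TCF4, a basic helix-loop-helix factor of the B lineage, stood at 18.81 and 18.59 against 18.16 and 18.16, a difference of -0.54 ± 0.15 with -0.16 ± 0.03 in T. TBC1D14, a regulator of autophagy, stood at 12.83 and 12.80 against 12.23 and 12.37, a difference of -0.52 ± 0.12 with -0.19 in T. For all 3 genes both sponge values lay below both EV values, as they did in 24.1% of all probes. CSRP2, a LIM-domain protein, was higher by 0.70 ± 0.19 in IP and equally in T, by 0.71 ± 0.15. TAB2, an adaptor that carries signals to NF-kB, differed by -0.45 ± 0.10 in IP and -0.07 ± 0.15 in T, and the adhesion ligand CD58 by -0.39 ± 0.04 and -0.12 ± 0.23.

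Of the 6 targets the study followed up, DET1, a component of a ubiquitin ligase, stood at 14.05 and 14.07 in EV IP and at 13.56 and 13.58 in sponge IP, a difference of -0.49 in IP, with -0.04 ± 0.20 in T. HOMEZ, a homeobox protein, differed by -0.25 ± 0.03 and -0.30 ± 0.15 at its 2 probes, and JARID2, a Polycomb-associated factor, by -0.18 ± 0.02. T of HOMEZ at the first probe and of JARID2 differed by 0.12 ± 0.18 and 0.13 ± 0.05. PSIP1, a chromatin protein, differed by -0.18 ± 0.11 at the probe the study lists, with 0.18 ± 0.19 in T, and by 0.05 and 0.25 ± 0.03 at its other 2 probes. Their mean IP/T differed too. In EV cells log2 IP/T was 3.36 at the listed probe and -0.02 and 0.56 at the others. For TBRG1, which encodes NIAM, the probe in the deposited table was not enriched (log2 IP/T 0.04 in EV cells) and differed by 0.30 ± 0.16 in IP. A second TBRG1 probe, outside the deposited table and normalised here from the scanner signals, was enriched (log2 IP/T 3.57 in EV cells, with T detected in 2 of 4 channels) and differed by -0.05 in Cy3 and -0.43 in Cy5. TRIM32 was at background in all channels.

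A second list of 38 genes commonly named as miR-155 targets had 29 in the set, of which 20 were lower and 4 higher in both dyes, with a median of -0.16 in IP over the dye means and -0.03 in T. The median was -0.10 with Cy3 alone and -0.12 with Cy5 alone. The 24 that were not on the ST486 list had a median of -0.12. CSF1R (-0.55 ± 0.20), FOXO3 (-0.31 ± 0.08), SMAD1 (-0.31) and SOCS1 (-0.25 ± 0.17), a cytokine receptor, 2 transcription factors and an inhibitor of cytokine signalling, were lower in both dyes. INPP5D, the phosphatase SHIP1, differed by -0.05 ± 0.08 and CEBPB by 0.02 ± 0.03. KDM3A, a histone demethylase that is also on the hypoxia list, was higher by 0.31 in IP and 0.36 ± 0.20 in T. MIR155HG, the transcript that carries miR-155, stood at 10.61 and 10.48 in EV IP and at 10.18 and 10.15 in sponge IP, and was lower by 0.38 ± 0.08 in IP and 0.62 ± 0.12 in T.

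Transcripts enriched by the Ago2 antibody were lower in sponge IP as a class. Probes were sorted by log2 IP/T averaged over both populations, which uses the same IP signals as the change. The median change in IP was 0.09 in the class from -2 to -1 (3652 probes) and 0.04 from -1 to 0 (8133 probes). It was -0.02 from 0 to 1 (6060 probes), -0.09 from 1 to 2 (2617 probes), -0.13 from 2 to 3 (935 probes) and -0.18 above 3 (360 probes). The share of probes lower in both dyes went from 18.3% to 72.2% between the class from -2 to -1 and the class above 3. The medians in T ran from 0.03 to -0.07 over the classes from -2 to 3, and the T dyes differed by more than the IP dyes. The ST486 targets lay high in this order, with a median log2 IP/T of 1.95. Set against probes of their own class (classes of width 0.5), 31 of 47 were lower. The median difference of the ST486 targets from the class was -0.09, and the class itself had a median of -0.11 for these genes. For the common miR-155 targets the median difference from the class was -0.05, with 18 of 29 below it.

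**Figure D3:**
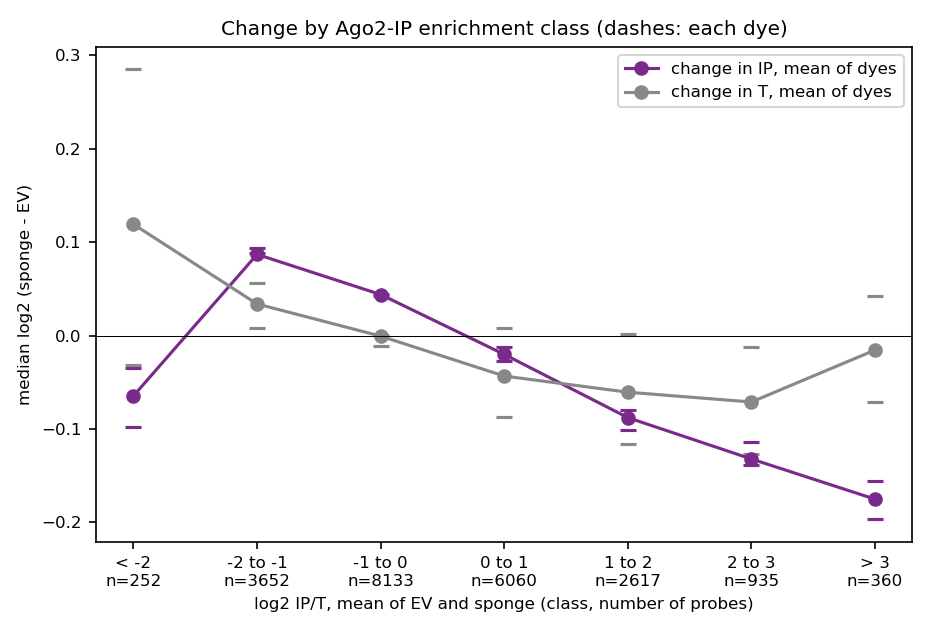
Median change (log2 sponge minus EV, y axis) in IP and in T for 7 classes of mean log2 IP/T (x axis, with the number of probes), where dashes give Cy3 and Cy5 alone. The IP medians descend from 0.09 to -0.18 from the second class to the last, and the first class, with 252 probes, stands apart at -0.06.

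Targets of other miRNAs gave comparators that share this enrichment. For 23 targets of the miR-17 family the median change in IP was -0.04 ± 0.01, and the median difference from the class was 0.06. For 20 let-7 targets it was -0.09 ± 0.04, or -0.03 against the class, with 14 lower and 5 higher in both dyes. For 12 miR-21 targets it was -0.06 ± 0.01, or -0.01 against the class. CDKN1A, the p21 inhibitor of cyclin-dependent kinases and a miR-17 family target, was higher by 0.52 ± 0.03 in IP and 0.52 ± 0.12 in T. MYC and E2F2, both let-7 targets and growth-promoting transcription factors, were lower in IP by 0.31 ± 0.02 and 0.32 ± 0.13. Genes of the silencing machinery had a median of -0.05 ± 0.02 over 21 genes, with AGO4 at -0.34 ± 0.04 and AGO1 at -0.33 ± 0.02. Deadenylation and decapping genes had a median of -0.04 ± 0.01 over 28 genes, and the helicase DDX6 was lower by 0.34 ± 0.08 in IP against a T change of 0.08 ± 0.04. Of 13 genes for proteins that bind AU-rich elements, 10 were lower in both dyes (median -0.12), led by the endonuclease ZC3H12A at -0.49 ± 0.05. ZFP36 (tristetraprolin) was higher, by 0.22 ± 0.07.

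Several groups of growth and metabolic genes were higher in sponge IP together. Among all 11023 genes, 37.9% were higher and 36.5% lower in both dyes. Of 35 genes of the ATF4 response and tRNA synthetases, 30 were higher and 2 lower in both dyes, with a median of 0.20 ± 0.01 in IP and 0.14 ± 0.04 in T. Next to DDIT4, the tryptophanyl-tRNA synthetase WARS1 was at least 1.5-fold higher, from 13.36 and 13.58 in EV IP to 14.10 and 14.25 in sponge IP, a rise of 0.70 ± 0.05 with 0.36 ± 0.03 in T. The stress factor DDIT3 (CHOP) was higher by 0.58 ± 0.04 and AARS1 by 0.50 ± 0.01, the latter with 0.07 ± 0.08 in T. Of 29 genes of cholesterol and fatty acid synthesis, 24 were higher and 3 lower (median 0.17 ± 0.01, T 0.06 ± 0.08). FASN, the fatty acid synthase, went from 7.61 and 7.50 in EV IP to 8.18 and 8.13, a rise of 0.60 ± 0.05 with 0.14 ± 0.06 in T. MVK, mevalonate kinase, was higher by 0.48 ± 0.07 in IP where T differed by -0.20 ± 0.17. Of 40 mitosis genes, 33 were higher and 3 lower (median 0.13 ± 0.01, T 0.08 ± 0.05), and 4 of 40 lay below their IP/T class. The kinesins KIF20A (0.43 ± 0.06) and KIF2C (0.40 ± 0.01), the spindle factor TPX2 (0.41 ± 0.19) and the centromeric histone CENPA (0.41 ± 0.03) led them. Of 46 DNA replication genes, 28 were higher and 9 lower (median 0.10 ± 0.02), with MCM10 at 0.42 ± 0.08. Their median difference from the IP/T class was smaller, at 0.05, with 15 of 46 below it. This difference was 0.18 for the ATF4 and tRNA synthetase genes, 0.17 for the cholesterol and fatty acid genes and 0.18 for the mitosis genes.

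Most proteasome subunits were slightly higher in IP. Of 37, 29 were higher and 2 lower in both dyes, with a median of 0.13 ± 0.01. The dyes disagreed in T, where the median was 0.02 with Cy3 and -0.13 with Cy5, and the difference between IP and T was not tested. PSMA4, a core particle subunit, stood at 14.83 and 14.74 in EV IP against 15.13 and 15.07 in sponge IP. It differed by 0.32 ± 0.02 in IP and -0.21 ± 0.02 in T. Of 77 nuclear-encoded respiratory chain genes, 50 were higher and 11 lower (median 0.11 ± 0.02, T 0.01 ± 0.03), with SDHA, a subunit of complex II, at 0.37. Mitochondrial ribosomal proteins had a median of 0.08 ± 0.03 over 76 genes. Cytoplasmic ribosomal proteins had a median of 0.02 ± 0.04 over 82 genes, which turned to -0.07 under normexp. The median difference from the IP/T class was 0.09 for the proteasome and 0.08 for the respiratory chain. It was 0.04 for mitochondrial and -0.01 for cytoplasmic ribosomal proteins. None of these 4 groups, which hold nuclear-encoded genes, had a gene changed by 1.5-fold. Over all genes only 0.481% were higher and 0.345% lower by 1.5-fold, so this absence says little about the groups.

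Replication-dependent histone genes, whose messages end in a stem-loop in place of a poly(A) tail, were higher in both fractions and more so in T. Of 58, 42 (72.4%) were higher and 5 (8.6%) lower in IP in both dyes, against 37.9% and 36.5% of all genes. The median was 0.15 ± 0.08 in IP and 0.29 ± 0.05 in T. H1-2 (0.68 ± 0.01), H2AC18 (0.67 ± 0.02) and H2BC12 (0.60) were at least 1.5-fold higher in IP. These were 3 of 58, against 0.481% of all genes. Histone genes resemble each other, and cross-hybridisation of their probes was not tested. How well the labelling takes up messages without a poly(A) tail was not tested either. In the other direction, of 264 numbered zinc finger genes 163 were lower and 45 higher in both dyes (median -0.10 ± 0.03, T -0.05 ± 0.07), and 183 of 264 lay below their IP/T class. At the brightest probe of each gene, ZNF157 was the only one lower by 1.5-fold, against 0.345% of all genes. A second, dim probe of ZNF341 was lower by 0.59 ± 0.11 where its brighter probe differed by -0.17 ± 0.35.

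**Figure D4:**
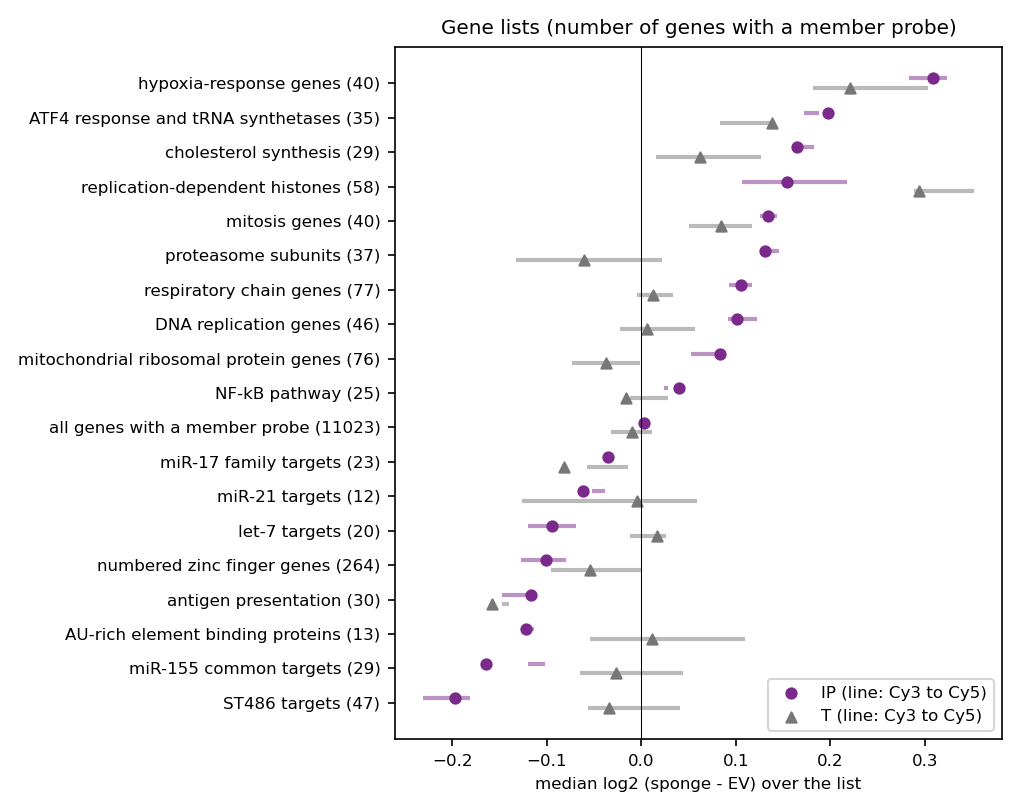
Median change over each gene list (log2 sponge minus EV, x axis) in IP and T, with the lists on the y axis and a line from the median with Cy3 to that with Cy5. Points are medians of the dye means, so a point can lie beside its line, and the ST486 targets have the lowest IP median while the hypoxia list has the highest.

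Genes of the lymphoma cell surface and its signalling moved in both directions. Among all 11023 genes, 37.9% were higher and 36.5% lower in both dyes. Of 30 antigen presentation genes, 17 were lower and 9 higher in both dyes, with a median of -0.12 ± 0.03 in IP and -0.16 ± 0.01 in T. The class II genes HLA-DPB1, HLA-DPA1 and HLA-DRA were lower by 0.57 ± 0.03, 0.47 ± 0.10 and 0.42 in IP, and by 0.60 ± 0.04, 0.43 ± 0.11 and 0.50 ± 0.02 in T. CD48, a SLAM-family adhesion receptor, stood at 10.31 and 10.26 in EV IP against 9.67 and 9.51 in sponge IP and was the only costimulation gene lower by 1.5-fold (-0.70 ± 0.08, T -0.84 ± 0.20). CD274, the PD-1 ligand, stood at 13.04 and 13.16 against 12.53 and 12.73, a difference of -0.47 ± 0.06 in IP and -0.18 ± 0.03 in T. FSCN1, the actin bundler that marks Reed-Sternberg cells, was the only marker of these cells changed by 1.5-fold, at 0.62 ± 0.09 in IP and 0.09 ± 0.20 in T. CCL17, the chemokine they secrete, was higher by 0.30 ± 0.07 in IP and 0.34 ± 0.08 in T. Of 35 cytokines, chemokines and receptors, 18 (51.4%) were lower and 13 (37.1%) higher, with a median of -0.09 ± 0.03. The higher share was near that of all genes. The growth factor gene CSF2 was lower by 0.54 ± 0.17 in IP and 0.38 ± 0.13 in T. IL1A was lower by 0.52 ± 0.03 in IP and at background in T.

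NF-kB genes had a median of 0.04 over 25 genes, with the inhibitor NFKBIA at -0.37 ± 0.04 and the deubiquitinase TNFAIP3 at 0.31 ± 0.09. JAK-STAT genes had a median of -0.02 ± 0.05 over 29, with STAT3 at 0.33 in IP and -0.00 in T. Apoptosis regulators had a median of -0.06 over 29, with the BCL2 relative BCL2A1 at 0.42 ± 0.09. B-lineage transcription factors had a median of -0.05 ± 0.03 over 22, and PRDM1 (BLIMP1) was higher by 0.29 ± 0.07. B-cell receptor genes had a median of -0.02 ± 0.04 over 16, with the adaptor BLNK higher by 0.45 ± 0.25. Interferon-stimulated genes had a median of 0.05 over 40 and immediate early genes 0.00 ± 0.04 over 26, the latter against 0.12 ± 0.03 in T. SMAD and TGF-beta genes (-0.07), G1 and RB genes (-0.05), heat shock proteins (0.02), miRNA host transcripts (-0.04), KLF genes (-0.06), RAB GTPases (0.00), translation factors (0.01) and ubiquitin-conjugating enzymes (0.02) all had medians within 0.07 of 0. The medians of the JAK-STAT, B-cell receptor, immediate early, heat shock, host transcript, RAB, translation factor and ubiquitin-conjugating genes changed sign under at least 1 other setting.

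**Figure D5:**
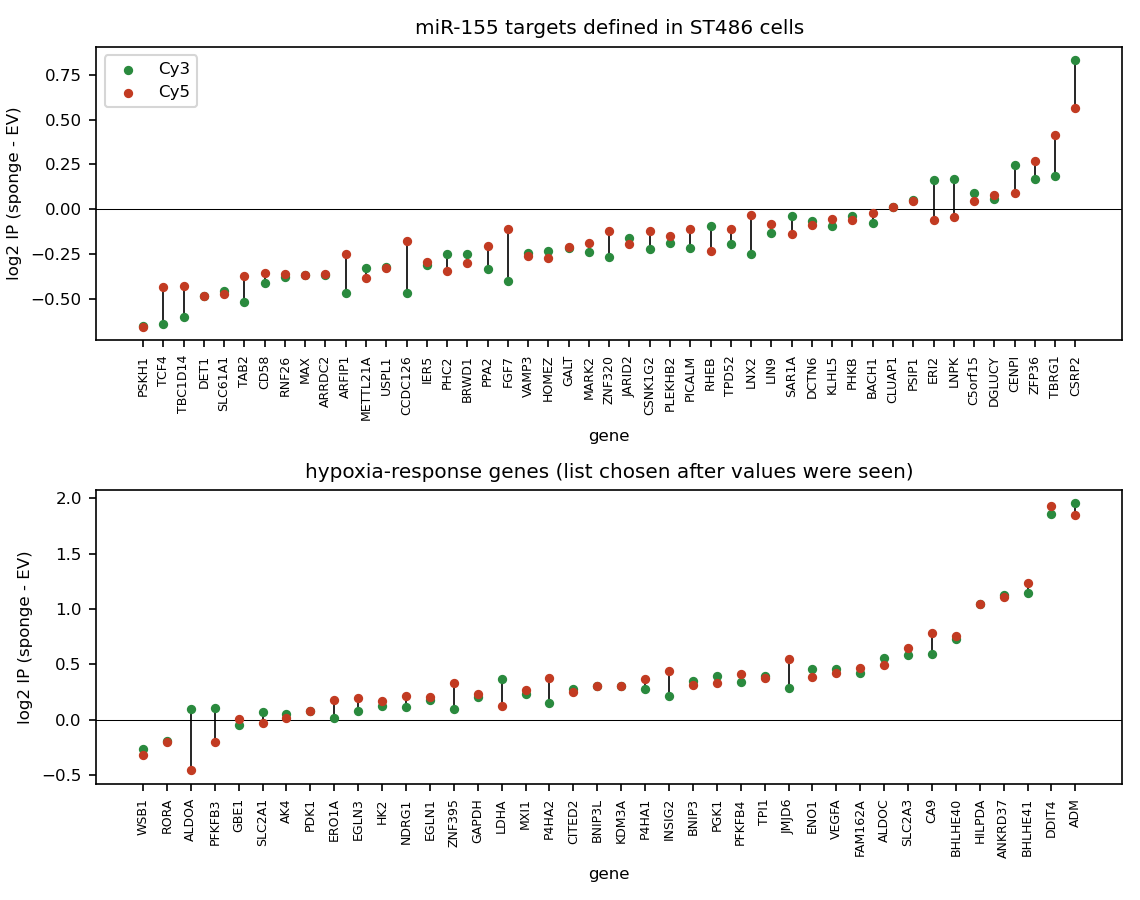
Change in IP (log2 sponge minus EV, y axis) of each gene (x axis) for the 47 targets from ST486 cells and the 40 hypoxia-response genes, with Cy3 in green, Cy5 in red and a line between them. In the upper panel 37 genes lie below 0 in both dyes and CSRP2 stands alone at the top, and in the lower panel 34 lie above 0, up to DDIT4 and ADM.

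The change in IP relative to T was taken within each array (IP in one dye, T in the other) and needs a probe well above background in all 8 channels, which 19886 probes were. Of these, 134 (0.674%) were at least 1.5-fold higher and 116 (0.583%) at least 1.5-fold lower in sponge cells. Few of them had changed in IP itself, 7 of the higher and 7 of the lower ones. T moved further than IP in 87 of the 134 and in 77 of the 116. Relative to T, the highest named genes were ADM (1.35 ± 0.16), ISCA1 (0.99 ± 0.05), MUSK (0.97 ± 0.34), RAPGEF1 (0.88 ± 0.07), NELFCD (0.88 ± 0.24), EXOC2 (0.86 ± 0.05), ADCK2 (0.85 ± 0.17) and TXNL4B (0.84 ± 0.62). ISCA1, an iron-sulfur cluster factor, was nearly level in IP (8.17 and 8.30 in EV, 8.28 and 8.40 in sponge) and lower in T by 0.89 ± 0.06, and its other 3 probes gave 0.55, -0.15 and -0.03 relative to T. The second probe of NELFCD gave 0.44, that of RAPGEF1 0.09 and that of ADCK2 0.21, and the other 2 probes of TXNL4B gave 0.52 and 0.44. NELFCD, a subunit of the negative elongation factor, was higher in IP by 0.52 ± 0.33. The lowest were ADIRF (-1.27 ± 0.22), CNTN2 (-0.95 ± 0.21), SMC1A (-0.86 ± 0.25), PCDHGA2 (-0.86 ± 0.11), NTNG2 (-0.85 ± 0.29), SERINC5 (-0.83 ± 0.47), POLR2M (-0.83 ± 0.35) and GM2A (-0.80 ± 1.11). Most of these lay at dim probes. The second probe gave -0.02 for SMC1A, a cohesin subunit, and 0.12 for SERINC5, and the other 2 probes gave -0.19 and -0.18 for POLR2M and -0.42 and 0.09 for GM2A. ADM, ISCA1, RAPGEF1 and EXOC2 had dye SDs of at most 0.16. The ST486 targets had a median of -0.21 ± 0.06 relative to T, with 34 lower and 3 higher in both orientations.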

How the data were processed

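L1236 total RNA and Ago2-IP RNA of 2 cell populations were each labelled with Cy3 and Cy5 on 4 two-colour arrays. Per the file headers, the authors extracted spot intensity values, already background-subtracted and dye-normalised, with Agilent Feature Extraction (10.7.3.1 in the headers, 10.5.1.1 in the submitters' processing notes). The deposited table holds the authors' quantile-normalised log2 values after filters on detection and dye agreement, and each column kept the rank order of its scanner channel (Spearman's rho 1). From these, Python 3.11.15 computed differences, calls (1.5-fold, same sign in both dyes) and list medians, each gene at its member probe of highest mean IP signal. The code was tested on simulated data. No spot was saturated, and no test, interval or p-value was possible with 1 RNA per group. The number of arrays limits the precision. Accessions were named through RefSeq (GRCh38.p14).

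Genes named are the 15 largest rises and falls in IP of one sign in both dyes, the 8 highest and lowest relative to T, the 6 followed-up targets and up to 4 members of each list. Other genes were named after their values were seen. Members and lists were chosen with earlier results of these data known, and the hypoxia list after the values were seen. Alternatives were single dyes, 75th-percentile scaling, normexp (offset 50) with loess and Aquantile in limma 3.58.1, other background rules, all array probes, and mean probes per gene. MiR-155 sites in transcripts were not analysed here, and some genes are not reported here.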

Additional observations from a re-analysis of the deposited data

Results flagged for a closer look

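At a probe of each of 4 named genes, IP changed by at least 1.5-fold and T moved the opposite way in both dyes. The difference between the fractions was not tested. CYP4F12, a cytochrome P450, was 0.73 in IP and -0.24 in T. CTNND1, the p120 catenin of adherens junctions, was -0.72 in IP and 0.50 in T. MUSK, a receptor kinase of the neuromuscular junction, was 0.66 in IP and -0.30 in T. CNOT4, a ubiquitin ligase tied to the CCR4-NOT complex, was -0.60 in IP and 0.60 in T at this probe. A brighter CNOT4 probe did not show this, at -0.15 ± 0.10 in IP and -0.05 ± 0.02 in T.

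Outside the deposited table, 2795 array probes were well above background in all 4 IP channels. After quantile normalisation of the scanner signals, 52 of them were at least 1.5-fold higher and 80 lower in sponge IP with the same sign in both dyes. In 2791 of the 2795, Cy3 and Cy5 differed by more than 2-fold in at least 1 RNA sample.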

How the results depend on the processing

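No change rests on more than 1 RNA per group, so differences between cultures and precipitations are not covered, and dim probes limit the folds. Probes higher in IP (144) numbered 219 with 75th-percentile scaling and 17 with normexp, and 231 to 277 with a single dye, which drops the agreement rule. Probes lower in IP (113) numbered 74 with 75th-percentile scaling, 27 with normexp, 194 over all array probes, 73 with detection in all 8 channels, and 205 to 225 with a single dye. The share of changed probes that were higher was 56.0%, 74.7% with 75th-percentile scaling and 38.6% with normexp. Relative to T, 134 higher probes became 8 with normexp, 357 with no background rule and 202 to 454 with a single dye. The 116 lower probes became 15, 281 and, with a single dye, 172 to 514, and 176 over all array probes. The cause was not tested.

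The ST486 median (-0.20) was -0.25 at the study's probes. The median of the common miR-155 targets (-0.16) was -0.14 with normexp, -0.15 over all array probes, -0.12 without the ST486 genes, and -0.10 to -0.12 with a single dye. The hypoxia median (0.31) was 0.23 with normexp and 0.26 without the leading genes. None of these changed sign. Reversals among other lists were in translation factors (0.01), at -0.0036 with Cy3, -0.0118 with Cy5, -0.0086 with normexp and -0.0211 with mean probes, and in ubiquitin-conjugating enzymes (0.0177), at -0.0107 with normexp. Of 280 medians of the other 35 lists under alternatives, 21 had another sign, the farthest from 0 being -0.07 for ribosomal proteins with normexp. Of 322 values of named genes under alternatives, which do not cover every gene named here, 0 had another sign. Most of the genes counted were picked for the same sign in both dyes, so the choice itself favoured this count. Sizes did move, under normexp from 1.90 to 0.44 for ADM and from 1.89 to 1.76 for DDIT4. No paired analysis was possible because each group holds 1 RNA, labelled with both dyes. The 3 alternatives added after the data were seen are the study's probes and the 2 shortened lists.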
